A study of Mus musculus with 8 samples.

Results

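The 9 genes described here encode proteins that clear glutamate, GABA and related amino acids around synapses. They are Slc1a2, Slc1a3, Glul, Glud1, Slc6a11, Abat, Slc7a10, Slc38a3 and Slc6a9, chosen by name out of 31053 genes in the count tables. Their RNA was measured in single cells of the mouse dentate gyrus, across stem-like and mature astroglia, progenitors, neuroblasts and the other cell types that marker genes defined. The study compared 2 conditions at day 15 after surgery in male Nestin-GFP mice that were 8 weeks old. Control mice had a sham craniotomy, and TBI mice had a unilateral controlled cortical impact, a piston injury to the cortex above the hippocampus. All mice carried GFP under control elements of the nestin gene, and the cells of both groups were sorted for GFP, which means that only sorted cells could be measured. The study asked what the injury changes in neural stem cells of the dentate gyrus and in their progeny.

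Astrocytes take up most of the glutamate that neurons release, turn it into glutamine and hand the glutamine back to neurons. They also take up GABA and glycine, so the same cells shape both excitatory and inhibitory transmission. The neural stem cells of the dentate gyrus are astroglia themselves and carry some of the same transporters.

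Cells from the ipsilateral dentate gyri of several animals went into 1 library for Control and 1 for TBI, and a cell cannot be traced to its animal. The sample labels list 4 animals per condition, and the study's text gives other numbers. No test between conditions was possible for this reason, and every interval below covers counting error only. The Control library held 3086 cell barcodes and the TBI library 5081, of which 3048 and 5033 were kept, with medians of 6933 and 5676 UMIs per cell (unique molecular identifiers, tags that mark each captured RNA molecule). The libraries shared 3 barcodes. Levels are CPM, counts per 1000000, the summed UMIs of a gene scaled to that total of UMIs in a cell type, with the nuclear RNA Malat1 left out of the total. Since reads came from the 3′ end of each RNA, levels are compared between cell types and not between genes.

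Clusters made without the 9 genes gave 1425 mature astrocyte-like cells (723 Control and 702 TBI) and 105 cells of stem-like astroglia (72 Control and 33 TBI). In the mature class all 12 of its markers were detected in at least 10% of the cells of each of its 3 clusters, with Gja1, the main astrocyte gap junction protein, at 1898 CPM and Aqp4, the astrocyte water channel, at 1237 CPM. The same markers stood at 543.1 and 173.1 CPM in stem-like astroglia. Stem-like astroglia held more Hopx (1516 against 614.1 CPM) and Vim (495.7 against 111.5 CPM). Nes, the gene whose control elements drove the sorted GFP, was at 52.85 CPM in stem-like astroglia and at only 1.23 CPM in the mature class. A further 21 cells, 13 of them Control and 8 TBI, scored nearest to stem-like astroglia but stayed unnamed. Their UMI counts were low for their library, and 0 stem-like markers were among their 10 leading genes. Those genes began with Ttr, Folr1 and Calml4, so these cells are not read as stem-like astroglia. Each of the other 9 types compared, from RG-like progenitors to microglia-like cells, held at least 50 cells.

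Promoter windows were taken from RefSeq (GRCm38.p6), 250 bases before to 50 after each annotated start. Windows were matched for 7 of the 9 genes, 9 windows in all. Shown are 3 genes with their highest levels in the astroglial classes, Slc1a3, Slc6a11 and Slc7a10, and Glul, which oligodendrocytes also carried. Capitals mark the letters GGGCGG on either strand (read as CCGCCC where it lies on the other strand), the core of a GC box. RNA counts do not measure binding at these sites.
Slc1a3 (chr15:8710758-8711057, minus strand): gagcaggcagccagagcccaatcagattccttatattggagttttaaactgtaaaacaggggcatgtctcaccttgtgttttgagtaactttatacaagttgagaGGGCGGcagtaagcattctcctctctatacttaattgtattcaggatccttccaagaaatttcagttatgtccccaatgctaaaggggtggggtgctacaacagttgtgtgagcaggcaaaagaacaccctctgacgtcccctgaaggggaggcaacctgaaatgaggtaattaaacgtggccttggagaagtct
Slc6a11 (chr6:114130991-114131290, plus strand): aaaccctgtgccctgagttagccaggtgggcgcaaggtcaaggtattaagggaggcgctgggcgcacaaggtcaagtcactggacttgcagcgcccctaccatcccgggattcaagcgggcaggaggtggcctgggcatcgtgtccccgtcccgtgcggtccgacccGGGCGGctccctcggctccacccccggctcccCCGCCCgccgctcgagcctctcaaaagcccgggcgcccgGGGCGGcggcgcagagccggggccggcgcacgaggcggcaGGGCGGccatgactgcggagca
Slc7a10 (chr7:35186135-35186434, plus strand): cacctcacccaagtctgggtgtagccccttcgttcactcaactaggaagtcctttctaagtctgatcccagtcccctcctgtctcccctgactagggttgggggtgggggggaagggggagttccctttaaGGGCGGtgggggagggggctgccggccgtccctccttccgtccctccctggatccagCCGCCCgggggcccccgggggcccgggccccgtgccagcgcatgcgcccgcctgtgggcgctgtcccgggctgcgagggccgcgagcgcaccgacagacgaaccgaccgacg
Glul (chr1:153899679-153899978, plus strand): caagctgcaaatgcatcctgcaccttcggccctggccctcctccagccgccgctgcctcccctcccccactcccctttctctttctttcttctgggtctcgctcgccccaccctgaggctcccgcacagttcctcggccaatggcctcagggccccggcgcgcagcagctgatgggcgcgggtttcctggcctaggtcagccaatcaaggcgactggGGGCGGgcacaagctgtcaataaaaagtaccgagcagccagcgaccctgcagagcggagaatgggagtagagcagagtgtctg
The letters GGGCGG were present in 35.7% of all 32851 windows of this length. The Slc6a11 window held 4 copies, that of Glud1 3, that of Slc7a10 2, and those of Slc1a3 and Glul 1 each. The Slc6a9 windows held 2, 0 and 0 copies. The Slc1a2 window held 0, but this window (chr2:102706188-102706487) lies inside the gene's annotated span in GENCODE (chr2:102658659-102790784), so it is an internal start. GC content was 45.3% in the Slc1a3 window, 72.3% in that of Slc6a11, 70.7% in that of Slc7a10 and 81.0% in that of Glud1, against a median of 52.7% over all windows. GC content thus differed widely among the astroglial genes.

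Slc1a2 and Slc1a3, the 2 main glial glutamate transporters, had their highest levels in opposite astroglial classes. Slc1a2 stood at 12810 CPM in Control and 11770 CPM in TBI mature astrocyte-like cells, and at 8224 and 7814 CPM in stem-like astroglia. Slc1a3 stood at 4102 and 4123 CPM in the mature class, and at 5944 and 6107 CPM in stem-like astroglia. For both genes the classes did not overlap between libraries. The mature level of Slc1a2 was 1.56 times the stem-like level in Control and 1.51 times in TBI, while for Slc1a3 this ratio was 0.690 and 0.675. Per 100 UMIs of Slc1a3, mature cells therefore held 312 UMIs of Slc1a2 in Control and 285 in TBI, and stem-like astroglia held 138 and 128.

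Both transporters were far lower in RG-like (radial glia-like) progenitors than in stem-like astroglia. The RG-like class was led by Ccnd2, Neurog2 and Gpd1. It held 195.0 CPM of Hopx, against 1516 CPM in stem-like astroglia. The order of types below was not measured as a lineage. Slc1a2 was 8.92 times higher in stem-like astroglia than in RG-like progenitors in Control (95% interval 8.43 to 9.44) and 8.63 times higher in TBI (8.03 to 9.27). Slc1a3 was 6.65 times higher in Control (6.26 to 7.07) and 7.46 times higher in TBI (6.89 to 8.08). From there the genes parted in CPM. Slc1a3 went down at every step, from 893.2 to 620.0 to 360.8 CPM in RG-like progenitors, cycling progenitors and neuroblast-like cells of the Control library, and from 818.4 to 506.4 to 300.4 CPM in TBI. Slc1a2 went from 921.9 to 410.9 CPM between RG-like and cycling progenitors in Control and was at 455.2 CPM in neuroblast-like cells. In TBI the same types held 905.8, 362.6 and 458.9 CPM. The CPM of Slc1a2 was thus lower in cycling progenitors than in neuroblast-like cells of the same library. The ratio was 0.903 (0.843 to 0.966) in Control and 0.790 (0.729 to 0.855) in TBI. At an equal depth of 2000 UMIs per cell, the shares of cells with a Slc1a2 UMI were not apart. In Control they were 48.2% (40.3 to 56.1) of cycling progenitors and 50.4% (46.3 to 54.5) of neuroblast-like cells. In TBI they were 46.5% (38.9 to 54.3) and 53.1% (50.0 to 56.1).

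Outside the lineage, Slc1a2 and Slc1a3 were low but not at 0. For Slc1a2 the library ranges of mural-like, Reln neuron-like, oligodendrocyte-like and endothelial-like cells overlapped from neighbour to neighbour, with levels between 84.87 and 310.4 CPM. Neighbours could thus not be put in order. Reln neuron-like cells (184.5 and 170.4 CPM) did lie above endothelial-like cells (164.6 and 84.87 CPM) in both libraries. After every cell was thinned to 2000 UMIs, at least 1 Slc1a2 UMI remained in 99.8% of Control and 99.5% of TBI mature cells, in 50.4% and 53.1% of neuroblast-like cells, and in 8.23% and 7.52% of mural-like cells, the vessel-wall cells, which are not known for this transporter. Without thinning the shares in both libraries together were 99.4%, 89.9% and 10.9%, at median depths of 2730, 9202 and 3356 UMIs. The neuroblast share lay far above the mural share at the same depth. It was not apart from that of oligodendrocyte precursor-like cells, where Slc1a2 was found in 44.0% of 25 Control and 47.9% of 48 TBI thinned cells. In Reln neuron-like cells these shares were 29.2% of 24 and 23.0% of 74. Slc1a3 was found in 98.2% and 96.9% of mature cells, 45.9% and 38.0% of neuroblast-like cells, 16.9% and 12.7% of mural-like cells and 5.98% and 2.39% of endothelial-like cells after thinning, and in 92.98%, 74.8%, 20.4% and 6.61% without it. Microglia-like cells held it in 38.5% of 26 Control and 18.3% of 71 TBI thinned cells, so their Control share was not apart from that of neuroblast-like cells. Fibroblast-like cells, 30 in all and left out of the comparisons for their number, held 1872 and 1572 CPM of Slc1a3.

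**Figure D1:**
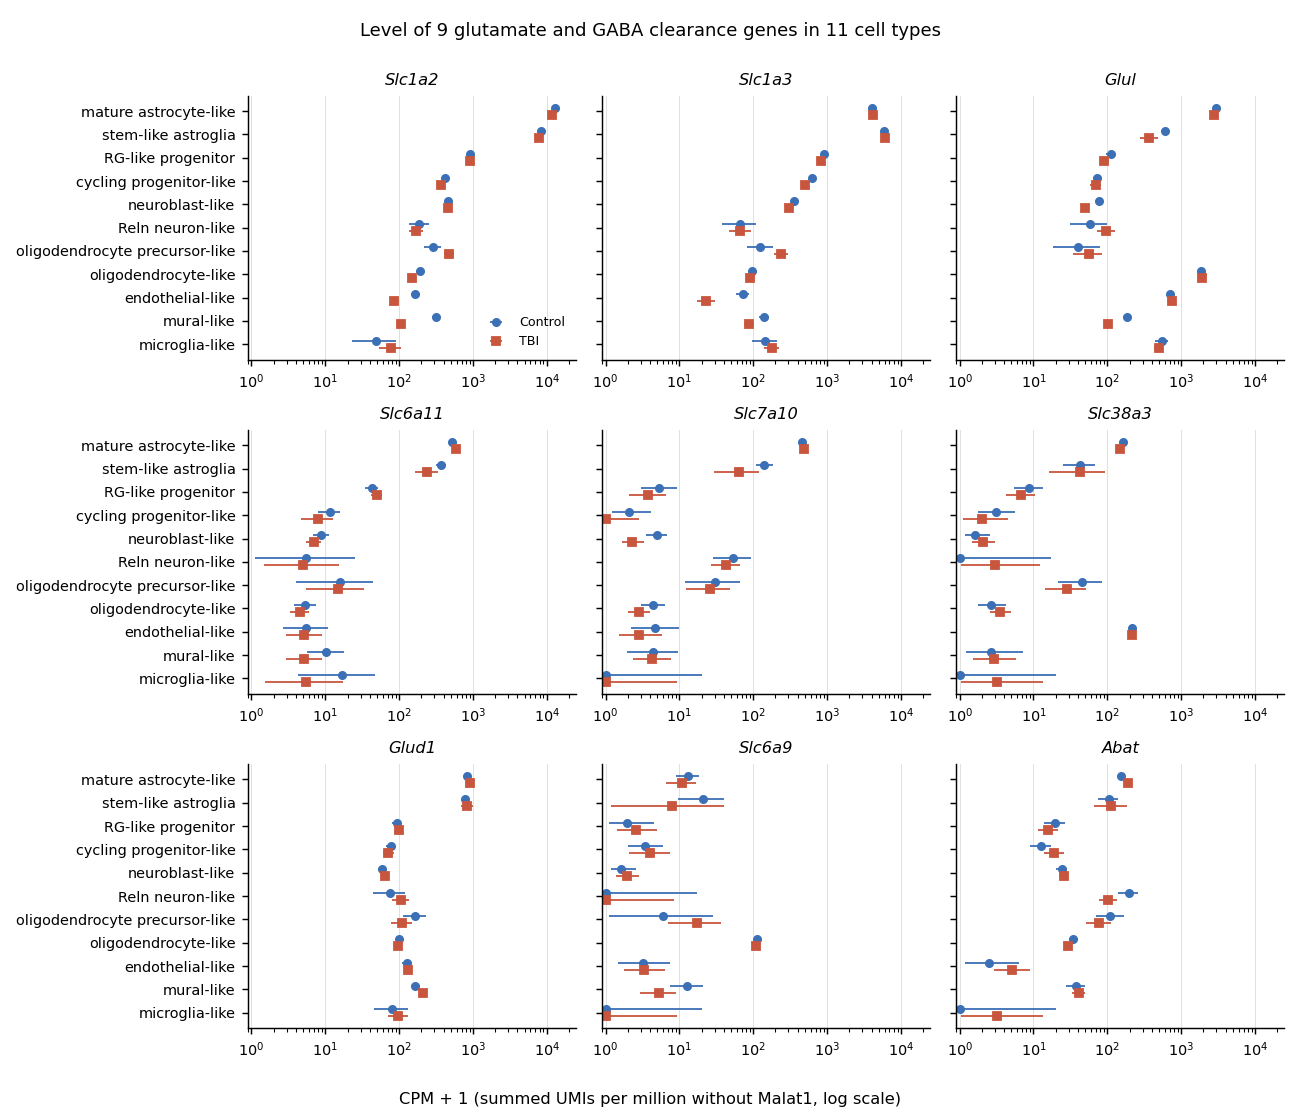
Level of each gene in 11 cell types, as CPM + 1 on a log scale, with 1 point per library and its 95% Poisson interval for counting error. Slc1a2, Glul, Slc6a11 and Slc7a10 were highest in mature astrocyte-like cells in both libraries, Slc1a3 in stem-like astroglia, Slc38a3 in endothelial-like cells and Slc6a9 in oligodendrocyte-like cells.

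Glul, glutamine synthetase, which joins ammonia to glutamate, separated the 2 astroglial classes. It stood at 2930 CPM in Control and 2785 CPM in TBI mature cells, and at 611.2 and 363.7 CPM in stem-like astroglia. Mature cells thus held 4.79 times the stem-like level in Control and 7.66 times in TBI. Oligodendrocyte-like cells came second, at 1856 and 1901 CPM, and endothelial-like cells followed at 712.3 and 744.3 CPM. Stem-like astroglia and microglia-like cells (544.0 and 493.3 CPM) overlapped between libraries. Oligodendrocyte precursor-like cells were far below the oligodendrocytes, at 39.61 and 54.89 CPM, and no progenitor, neuroblast or Reln neuron value exceeded 109.7 CPM. At 2000 UMIs, Glul was found in 91.3% of Control and 93.4% of TBI mature cells, in 53.6% and 45.2% of stem-like cells, in 89.1% and 88.2% of oligodendrocyte-like cells, and in 13.6% and 7.63% of neuroblast-like cells. Unthinned, the shares were 93.2%, 76.2%, 98.8% and 36.3% with both libraries joined.

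Glud1, the mitochondrial glutamate dehydrogenase, did not separate the astroglial classes. It stood at 836.7 CPM in Control and 922.8 CPM in TBI mature cells and at 788.6 and 839.4 CPM in stem-like astroglia, and these ranges overlapped. The step to RG-like progenitors was as large as for the transporters, 8.6-fold in Control (7.16 to 10.3) and 8.41-fold in TBI (6.72 to 10.5). Every other type held between 56.84 and 208.2 CPM, the upper end in mural-like cells of the TBI library, so Glud1 was present at a low level throughout.

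Slc6a11, the glial GABA transporter of this list, was nearly restricted to astroglia. It stood at 526.3 CPM in Control and 584.8 CPM in TBI mature cells, and at 372.1 and 237.8 CPM in stem-like astroglia. RG-like progenitors followed at 41.26 and 48.73 CPM, oligodendrocyte precursor-like cells at 14.85 and 13.72 CPM, and the other 7 types held between 3.53 and 15.84 CPM. At 2000 UMIs it was found in 57.6% of Control and 59.6% of TBI mature cells, in 40.6% and 32.3% of stem-like cells, in 9.396% and 10.5% of RG-like progenitors and in 1.65% and 0.490% of mural-like cells. Its unthinned shares were 60.8%, 67.6%, 34.1% and 1.67% with both libraries joined, at median depths of 2730, 5789, 12042 and 3356 UMIs.

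Abat, GABA transaminase, which starts the breakdown of GABA in mitochondria, was less restricted. It stood at 152.9 CPM in Control and 188.4 CPM in TBI mature cells, at 103.5 and 111.9 CPM in stem-like astroglia, at 193.2 and 102.2 CPM in Reln neuron-like cells and at 108.9 and 76.85 CPM in oligodendrocyte precursor-like cells. The library ranges of neighbours in this order overlapped, so neighbours could not be put in order. Mature cells did lie above stem-like astroglia and oligodendrocyte precursor-like cells in both libraries. Mural-like cells came next at 36.47 and 39.87 CPM, and endothelial-like cells held 1.496 and 4.17 CPM.

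Slc7a10, a sodium-independent exchanger of small neutral amino acids such as glycine and D-serine, also separated the mature class as a whole from stem-like astroglia. A mature cluster described below overlapped with the stem-like class. It stood at 463.3 CPM in Control and 493.0 CPM in TBI mature cells, and at 140.5 and 62.96 CPM in stem-like astroglia, on 57 and 9 UMIs. The mature level was 3.30 times the stem-like level in Control and 7.83 times in TBI. Reln neuron-like cells came next at 52.70 and 42.09 CPM, and oligodendrocyte precursor-like cells after them at 29.70 and 24.70 CPM. All other types stayed at or below 4.37 CPM. In Reln neuron-like cells, 12.5% of Control and 9.46% of TBI cells held a UMI after thinning, against 0.412% and 0.490% of mural-like cells. The Reln neuron shares were 3 of 24 and 7 of 74 cells. Unthinned, the shares were 22.3% and 0.628%, at median depths of 6447 and 3356 UMIs. Reln neuron-like cells held 80 and 63.6 Slc7a10 UMIs per 100 of Slc1a3, where mature cells held 11.3 and 12.0. The Reln neuron ratios rest on few counts, 12 Slc7a10 and 15 Slc1a3 UMIs in Control and 21 and 33 in TBI. A Slc7a10 UMI was seen in 0 of 97 thinned microglia-like cells, which allows a share of up to about 3.09%, taken as 3 cells in 97.

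Slc38a3, a sodium-coupled glutamine transporter, was highest outside astroglia. Endothelial-like cells held 217.7 CPM in Control and 213.3 CPM in TBI, above the 164.5 and 147.7 CPM of mature cells. Stem-like astroglia held 41.89 and 41.97 CPM on 17 and 6 UMIs, and overlapped with oligodendrocyte precursor-like cells at 44.56 and 27.44 CPM. The remaining types were at or below 7.77 CPM. At 2000 UMIs the gene was found in 30.7% and 32.6% of endothelial-like cells, in 23.1% and 21.5% of mature cells and in 0% and 0.327% of mural-like cells.

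Slc6a9, a glycine transporter, had its highest level in oligodendrocytes. Oligodendrocyte-like cells held 113.1 CPM in Control and 108.1 CPM in TBI, while mature cells held 11.95 and 9.73 CPM on 29 and 16 UMIs. Stem-like astroglia held 19.72 and 6.995 CPM on 8 and 1 UMIs, which could not be told from the mature class. Reln neuron-like and microglia-like cells held 0 UMIs.

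Counted over the list, 7 of the 9 genes were at least 4-fold higher in mature cells than the mean of the 9 non-astroglial types in both libraries, all but Slc6a9 and Abat. Of all 13089 genes tested, 4.55% passed this rule. The ratios in Control and TBI ran from 5.36 and 5.17 for Slc38a3 and 7.22 and 6.96 for Glul, through 38.8 and 38.0 for Slc1a2, to 42.0 and 55.0 for Slc6a11 and 40.8 and 57.1 for Slc7a10. Abat passed the limit in TBI, at 5.45, and not in Control, at 3.22. Between the astroglial classes, 3 of the 8 genes with enough UMIs were at least 2-fold higher in mature cells in both libraries (Glul, Slc7a10 and Slc38a3), against 4.29% of 6848 genes, and 0 were at least 2-fold lower, against 2.99%. Slc6a11 passed in TBI, at 2.46, and not in Control, at 1.41. With 1 library per condition these counts carry no p-value.

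Mature astrocyte-like cells fell into 3 clusters, and the members were unevenly spread over them. The first, led by Gja1, Aqp4 and Cldn10, held 514 cells at a median of 4821 UMIs. The second, led by Atp13a4, Nwd1 and Phkg1, held 352 cells at 2320 UMIs. The last, led by the metallothionein Mt3, the glycolytic enzyme Aldoc and Cxcl14, held 559 cells at 1699 UMIs and a median of 12.3% mitochondrial UMIs, against 6.33% in the first and 14.3% in the second. Of the mature class the last cluster made up 33.6% in Control and 45.0% in TBI, the first 35.8% and 36.3%, and the second 30.6% and 18.7%.

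The 2 enzymes of glutamate and the GABA-degrading enzyme were highest in the Mt3 and Aldoc cluster. Glul stood there at 4814 CPM in Control and 4280 CPM in TBI, against 2739 and 2352 CPM in the Gja1 and Aqp4 cluster and 1088 and 1037 CPM in the Atp13a4 and Nwd1 cluster. Glud1 followed the same order, with 1101 and 1206 CPM, then 853.5 and 894.3 CPM, then 461.4 and 352.2 CPM. Abat had 253.1 and 252.6 CPM, then 135.2 and 181.2 CPM, then 75.54 and 62.71 CPM. For none of these enzymes did the clusters overlap between libraries.

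The 2 carriers Slc7a10 and Slc38a3 had another order. Slc7a10 was lowest in the Mt3 and Aldoc cluster, at 140.4 and 123.4 CPM, against 555.1 and 637.5 CPM in the Gja1 and Aqp4 cluster and 618.6 and 757.4 CPM in the Atp13a4 and Nwd1 cluster. Slc38a3 was likewise lowest there, at 55.52 and 64.61 CPM, against 184.3 and 170.4 CPM and 247.0 and 250.9 CPM. The Slc7a10 level of the Mt3 and Aldoc cluster overlapped with that of stem-like astroglia, at 140.5 and 62.96 CPM. Slc6a11 was highest in the Gja1 and Aqp4 cluster, at 664.6 and 751.9 CPM, and at 342.9 and 340.7 CPM in the Mt3 and Aldoc cluster. Slc1a3 was also highest in the Gja1 and Aqp4 cluster, at 5086 and 5384 CPM, against 2933 and 2312 CPM in the Mt3 and Aldoc cluster. Slc1a2 stood at 13850 and 11990 CPM in the Gja1 and Aqp4 cluster and at 12940 and 12570 CPM in the Mt3 and Aldoc cluster, which overlapped, and at 9808 and 8809 CPM in the Atp13a4 and Nwd1 cluster.

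**Figure D2:**
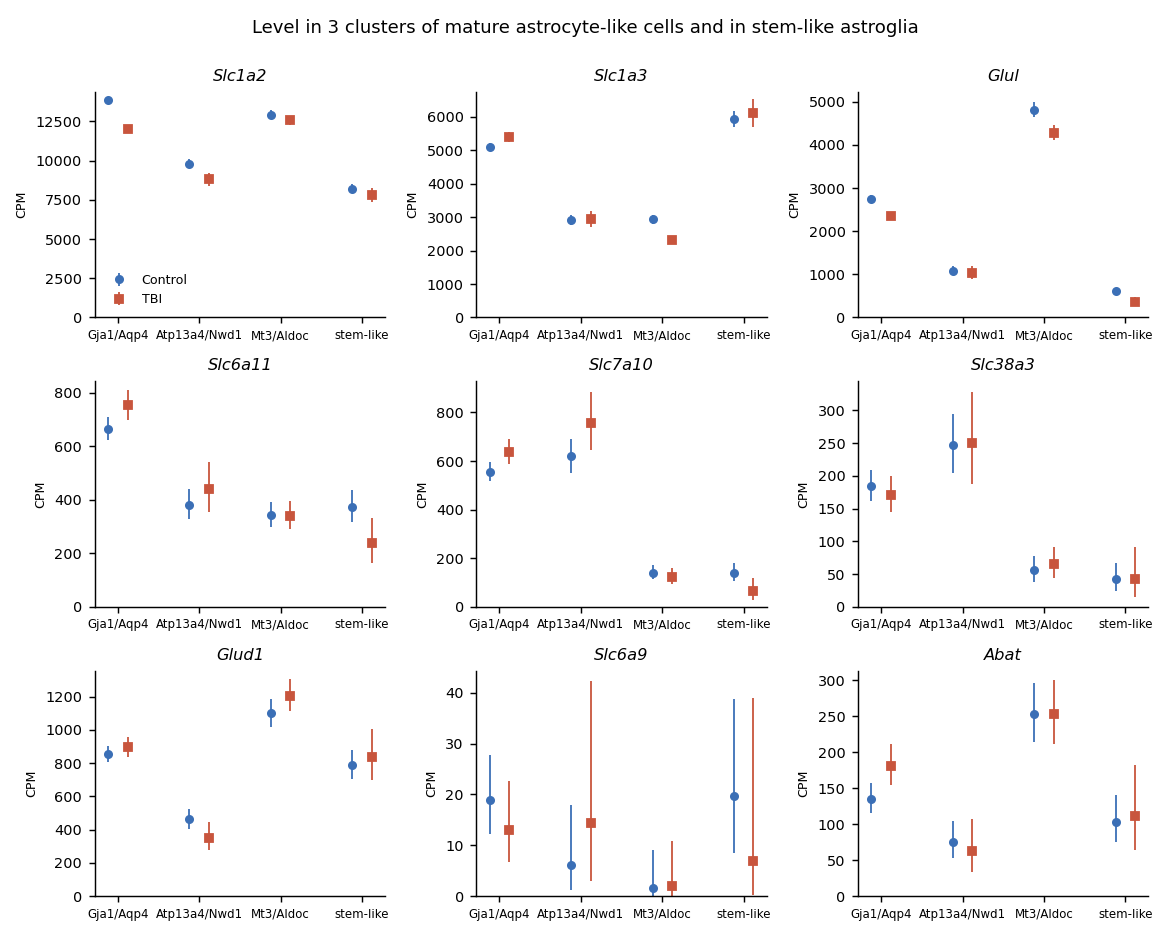
Level of each gene (CPM, linear axis) in the 3 clusters of mature astrocyte-like cells, named by their leading genes, and in stem-like astroglia, with 1 point per library and its 95% Poisson interval. Glul, Glud1 and Abat peaked in the Mt3 and Aldoc cluster, where Slc7a10 and Slc38a3 were at their lowest among mature cells.

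RNA content also differed between the clusters, and its part in these differences was not tested. The Mt3 and Aldoc cluster and the Atp13a4 and Nwd1 cluster both had fewer UMIs per cell than the Gja1 and Aqp4 cluster. They lay at opposite ends for Glul, Glud1, Abat, Slc7a10 and Slc38a3. For Slc6a11 and Slc1a3 both lay below the Gja1 and Aqp4 cluster. The Atp13a4 and Nwd1 cluster held 381.8 and 439.0 CPM of Slc6a11 and 2903 and 2943 CPM of Slc1a3. Mature cells with under 2000 UMIs, 173 Control and 321 TBI cells, held 311.3 and 437.9 CPM of Slc6a11 and 307.3 and 261.2 CPM of Slc7a10, where those with 2000 UMIs or more held 551.5 and 630.5 CPM and 481.5 and 565.1 CPM. Glul moved the other way, from 3983 and 3542 CPM in the cells of low RNA content to 2807 and 2549 CPM in the others. Slc1a2 differed little, with 11820 and 13600 CPM against 12920 and 11190 CPM, and the libraries differed in direction. The shallow cells also held more mitochondrial RNA, 18.0% of UMIs in Control and 16.1% in TBI, against 9.49% and 7.89%.

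Many members were present together in single mature cells. After thinning to 2000 UMIs a mature cell held a UMI of 5.13 of the 9 genes on average in Control and of 5.28 in TBI, and 92.5% and 94.2% of the cells held at least 4. Stem-like astroglia averaged 3.93 and 3.97 genes, RG-like progenitors 1.95 and 1.90, cycling progenitors 1.40 and 1.38, and neuroblast-like cells 1.24 and 1.16. Mural-like cells, the lowest, averaged 0.790 and 0.716. Within mature cells, detection of the carriers Slc6a11 and Slc7a10 went together in both libraries. Slc7a10 was detected in 54.6% of the Control cells with a Slc6a11 UMI and in 43.3% of those without, and in 59.9% and 49.4% in TBI. Between Slc6a11 and the enzyme Glud1 there was little of this, as Slc6a11 was detected in 56.7% of Control cells with Glud1 and in 59.8% of those without, and in 59.9% and 58.7% in TBI. These shares are over cells of 1 library each and are a description. They pool the mature clusters, which differed in the levels of these genes, and the part of the clusters was not tested.

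**Figure D3:**
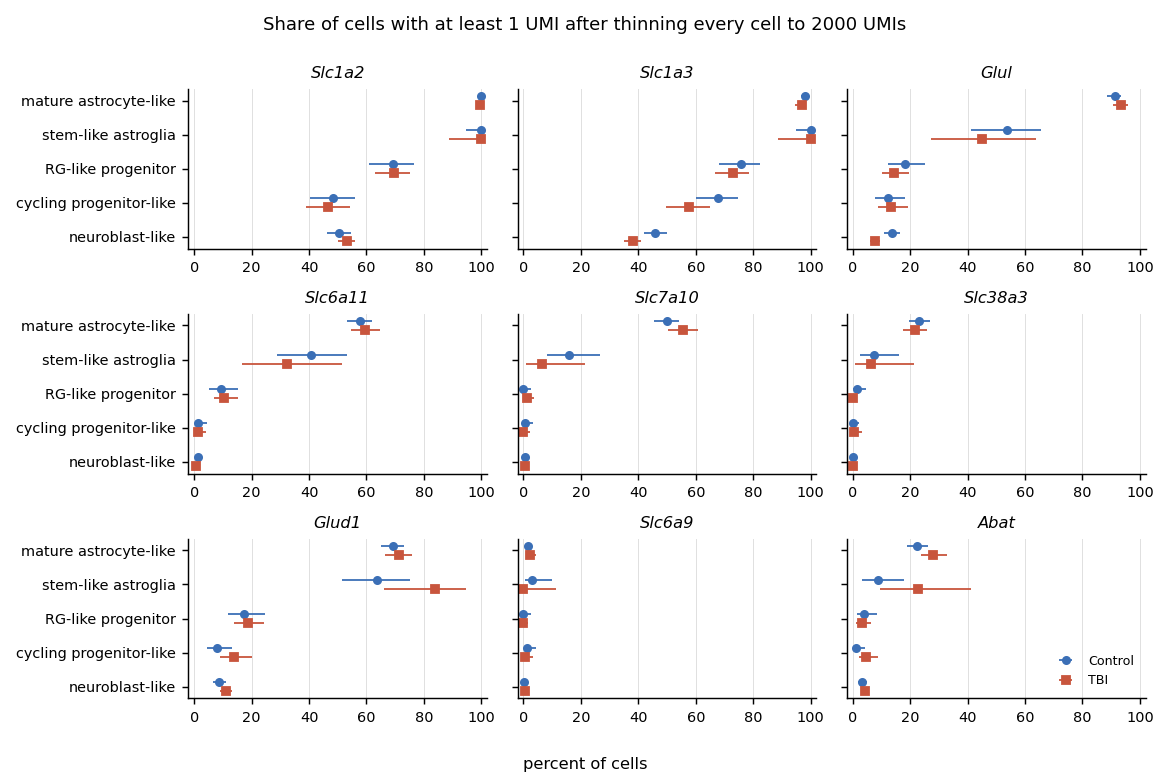
Percent of cells with at least 1 UMI after each cell was thinned to 2000 UMIs, in 5 types of the lineage, with 1 point per library and its 95% Clopper-Pearson interval. Slc1a2 and Slc1a3 remained detectable in 37.98% to 75.84% of progenitors and neuroblast-like cells. Slc6a11, Slc7a10 and Slc38a3 were each found in at most 10.48% of these cells. Types outside the lineage are not shown.

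Between conditions, no member moved far in mature astrocyte-like cells. Of the 8 genes with at least 100 UMIs, 0 were at least 1.5-fold higher in TBI, against 0.986% of 6287 genes, and 0 were at least 1.5-fold lower, against 2% of them. The log2 ratio of TBI to Control was largest for Abat, at 0.30 (0.08 to 0.52). Slc6a11 was at 0.15 (0.03 to 0.27) and Glud1 at 0.14 (0.04 to 0.24), and for these 3 genes the counting interval lay above 0. It lay below 0 for Slc1a2, at -0.12 (-0.15 to -0.10), and Glul, at -0.07 (-0.13 to -0.02). In the mean of single-cell CPM, which gives every cell the same weight, the ratio was 0.004 for Slc1a2 and -0.004 for Glul. The intervals of Slc1a3, Slc7a10 and Slc38a3 included 0. The median over all genes in these cells was -0.01. How much 2 libraries of the same condition would differ is not known, so none of these values can be called a change.

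The shares of the mature clusters also differed between libraries, as given above, and their part in the class ratios was not tested. Ratios within clusters are given here as a description. In the Gja1 and Aqp4 cluster the log2 ratio was 0.42 for Abat (0.11 to 0.73), 0.18 for Slc6a11 (0.03 to 0.32), 0.20 for Slc7a10 (0.04 to 0.36) and 0.07 for Glud1 (-0.06 to 0.20). Glud1 was at 0.13 (-0.03 to 0.29) in the Mt3 and Aldoc cluster and at -0.39 (-0.79 to -0.003) in the Atp13a4 and Nwd1 cluster. Abat was at -0.003 (-0.35 to 0.34) in the Mt3 and Aldoc cluster and at -0.27 (-1.30 to 0.68) in the Atp13a4 and Nwd1 cluster. In the same order, Slc6a11 was at -0.01 (-0.31 to 0.29) and 0.20 (-0.18 to 0.57), and Slc7a10 at -0.19 (-0.68 to 0.30) and 0.29 (0.005 to 0.57). With equal weight for the clusters the ratio in the mature class was 0.10 for Abat and 0.02 for Glud1. In the order Mt3 and Aldoc, Gja1 and Aqp4, Atp13a4 and Nwd1, the ratio of Glul was -0.17, -0.22 and -0.07, and that of Slc1a2 was -0.04, -0.21 and -0.16. Slc1a3 went apart, at -0.34 (-0.45 to -0.24) in the Mt3 and Aldoc cluster and 0.08 (0.03 to 0.14) in the Gja1 and Aqp4 cluster. Summed markers of oligodendrocytes stood at 329.3 CPM in Control and 479.0 CPM in TBI mature cells, with 8 of 8 higher in TBI, and those of neuroblasts at 262.6 and 441.9 CPM, with 9 of 10 higher. Their part in the ratios was not tested.

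In stem-like astroglia 5 members had enough UMIs for a ratio, and 2 of them were at least 1.5-fold lower in TBI, against 4.77% of 838 genes. Glul held 248 UMIs in Control and 52 in TBI, at 611.2 and 363.7 CPM, a log2 ratio of -0.75 (-1.21 to -0.31). Slc6a11 held 151 and 34 UMIs, at 372.1 and 237.8 CPM, a log2 ratio of -0.65 (-1.23 to -0.10). None of the 5 was 1.5-fold higher, against 2.63% of genes. Slc1a2 was at -0.07 (-0.17 to 0.02), Slc1a3 at 0.04 (-0.07 to 0.15) and Glud1 at 0.09 (-0.22 to 0.40). Slc7a10, below the limit of 100 UMIs, was at -1.16 (-2.36 to -0.13). These ratios rest on 33 TBI cells. Slc6a11 no longer passed 1.5-fold under 4 other choices of cell filter or clustering, Glul no longer passed when cells over 10% mitochondrial UMIs were removed, and neither passed in the mean of single-cell CPM. After thinning, the shares of cells with Glul were 53.6% (41.2 to 65.7) and 45.2% (27.3 to 64.0), and those with Slc6a11 40.6% (28.9 to 53.1) and 32.3% (16.7 to 51.4), so the intervals overlapped. Summed markers of mature astrocytes were 7203 CPM in Control and 6359 CPM in TBI stem-like cells, with 5 of 12 higher in TBI, and those of oligodendrocytes 214.4 and 279.8 CPM. Their part in the ratios was not tested.

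**Figure D4:**
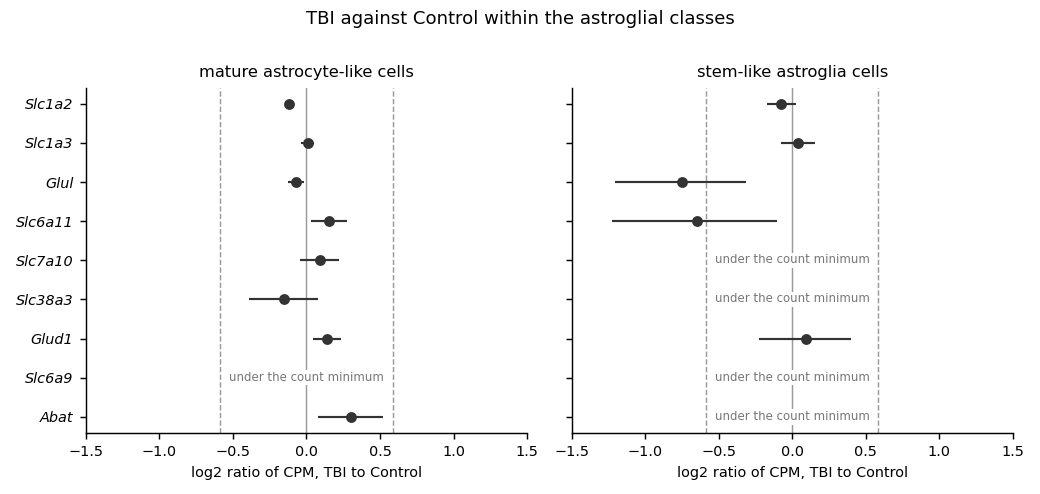
Log2 ratio of TBI to Control of the CPM of each gene in the 2 astroglial classes, with 95% intervals for counting error from 1 library per condition, and dashed lines at 1.5-fold. All 8 ratios in mature cells lie between the dashed lines, and only Glul and Slc6a11 lie beyond one in stem-like astroglia.

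In the progenitors and neuroblasts the ratios of the glutamate transporters were small. Slc1a3 was at -0.13 (-0.22 to -0.04) in RG-like progenitors, -0.29 (-0.40 to -0.18) in cycling progenitors and -0.26 (-0.35 to -0.18) in neuroblast-like cells. Slc1a2 was at -0.18 (-0.31 to -0.05) in cycling progenitors. Glul was at -0.67 (-0.86 to -0.48) in neuroblast-like cells, from 76.58 to 48.10 CPM, which passed 1.5-fold. It was at -0.28 (-0.55 to -0.007) in RG-like progenitors. In oligodendrocyte-like cells Slc1a2 was at -0.38 (-0.50 to -0.26), the only 1 of 6 members with an interval apart from 0. The vessel cells held less of several members in TBI too. Shares of all genes are given below only for types and directions in which members passed 1.5-fold. None was computed for neuroblast-like cells. In mural-like cells 3 of 5 members were at least 1.5-fold lower, Slc1a2 at 310.4 and 106.0 CPM, Glul at 184.9 and 101.8 CPM and Slc1a3 at 139.1 and 86.77 CPM, against 4.94% of 5703 genes, where the median over all genes was 0.11. In endothelial-like cells 2 of 5 were, Slc1a2 at 164.6 and 84.87 CPM and Slc1a3 at 71.08 and 22.26 CPM, against 1.02% of 5574 genes. Glud1 was higher in TBI mural-like cells, at 0.34 (0.09 to 0.59). The thinned share of mural-like cells with a Slc1a2 UMI, given above, differed little between the libraries. The mural-like class was also made up differently in them. A cluster led by Hspa1a, Kcnj8 and Cxcl1 held 44 Control and 265 TBI cells. Another, led by Pln, Tagln and Acta2, held 51 and 41. The part of these clusters in the ratios was not tested. In oligodendrocyte precursor-like cells both members with enough UMIs were at least 1.5-fold higher in TBI, where 16.1% of 1111 genes passed this limit and the median over all genes was 0.13. Slc1a2 was there at 0.75 (0.31 to 1.21) and Slc1a3 at 0.93 (0.27 to 1.64), on 26 Control and 55 TBI cells. The part of free RNA in the values of these types was not tested.

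A wider list of 62 carriers, enzymes and receptors of the same pathways placed the members among their neighbours. Of all 13089 genes tested, 4.55% were at least 4-fold higher in mature cells than the non-astroglial mean in both libraries. Of the 53 listed genes with at least 100 UMIs, 15 passed this rule. By list these were 2 of 10 other glutamate and neutral amino acid carriers, 1 of 4 other GABA and glycine carriers, 1 of 9 glutamate and glutamine enzymes, 1 of 4 genes of GABA synthesis and breakdown, 2 of 9 serine and glycine enzymes, 0 of 2 vesicle carriers, 7 of 11 genes of ion support and metabotropic receptors, and 1 of 4 mitochondrial glutamate carriers. The highest ratios were those of Slc7a11, the cystine and glutamate exchanger, at 497.1 CPM in Control and 481.4 CPM in TBI against means of 6.35 and 4.59 CPM, and of Slc4a4, a sodium bicarbonate cotransporter, at 1630 and 1621 CPM against 21.32 and 19.55 CPM. Slc7a11 was also among the 10 leading genes of the fibroblast-like cells, which the mean leaves out for their number. The lowest ratios were those of Slc6a13, a GABA and taurine transporter, and Shmt1, a serine hydroxymethyltransferase of the cytosol. Both had 0 UMIs in mature cells of both libraries. Against stem-like astroglia a call needed 100 UMIs in the 2 astroglial classes together, so not all of the 53 genes could be called. In both libraries 6 pathway genes were at least 2-fold higher in mature cells, and 3 were at least 2-fold lower. Of all 6848 genes, 4.29% and 2.99% passed these rules. How many pathway genes could be called was not counted, so their share is not known. Slc38a1, a glutamine transporter known from neurons, was among the lower ones and so ran opposite to Slc38a3, at 18.96 and 11.55 CPM in mature and 423.9 and 447.7 CPM in stem-like cells. It is named here after its values were seen. Between conditions 2 of 37 pathway genes were past 1.5-fold in mature cells. Of all 6287 genes, 0.986% were at least 1.5-fold higher in TBI and 2% at least 1.5-fold lower. A count this small is not read as a result about the pathway. The genes were Got2, a mitochondrial aspartate aminotransferase, at 0.65 (0.06 to 1.24), and Slc25a12, an aspartate and glutamate carrier, at -0.60 (-1.06 to -0.15) on the log2 scale.

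**Figure D5:**
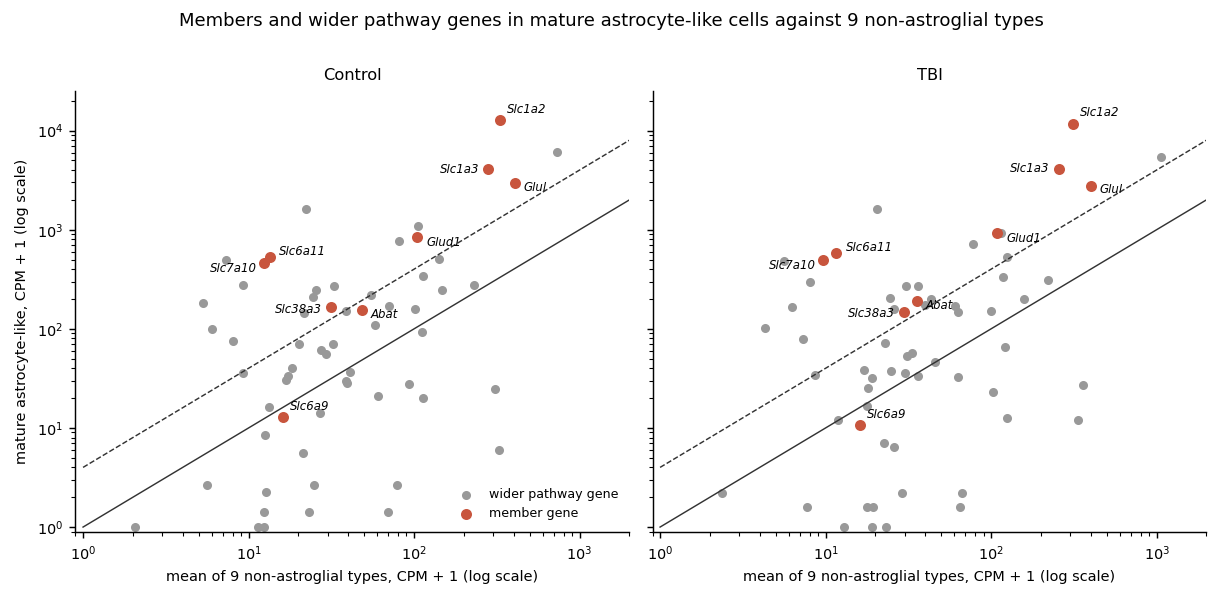
CPM + 1 in mature astrocyte-like cells against the mean of 9 non-astroglial types, both on log scales, for the 9 members and the 53 pathway genes with at least 100 UMIs, in the Control and the TBI library. The solid line marks equal levels and the dashed line 4-fold, above which 7 of the 9 members and 15 pathway genes lie in both libraries.

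The genes whose levels ran most like each member were found among 10044 genes, with the members themselves left out, over 18 pairs of cell type and library, by the Pearson correlation of log2(CPM + 10). The pairs share 2 libraries, their depths and their free RNA, so the values describe likeness only. Slc6a11 was closest to Acsbg1 (0.994), Slc25a18 (0.991) and Plcd4 (0.988), and Slc7a10 to Baalc (0.987), Slc4a4 (0.986) and Lcat (0.975). Slc1a2 was closest to Sfxn5 (0.986), Sorcs2 (0.964) and Acsl6 (0.963), and Slc1a3 to Tenm3 (0.957), Gabra4 (0.956) and Dbx2 (0.951). Of the enzymes, Glul was closest to Tmc7 (0.922), Eps15 (0.918) and Car2 (0.903), Glud1 to Ppp1r3c (0.953), Lgr4 (0.951) and Lcat (0.949), and Abat to Lsamp (0.952), Wasf3 (0.941) and Tspyl2 (0.925). Slc38a3 ran with Kifc3 (0.959), Usp53 (0.958) and S1pr1 (0.933), and Slc6a9 with Lgi3 (0.967), Hhip (0.964) and Dip2a (0.959). Plcd4 is also a marker that named the mature class.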

How the data were processed

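RNA of single cells was read with the 10x Genomics 3′ kit, and the authors' counts came from Cell Ranger 3.0.2 on GRCm38/mm10, per the submitters' processing notes. The deposited tables hold UMI counts per gene and barcode, whole numbers without normalization, 24723113 UMIs in Control and 31543330 in TBI. The condition of each table came from barcodes the study lists, of which 356 of 356 Control and 320 of 320 TBI barcodes were found in the table of their condition and 0 in the other.

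Cells with at least 200 genes and log10 UMIs no more than 3 median absolute deviations from the median of their library were kept. Scrublet (scanpy 1.11.5) called 1.35% and 2.17% of cells doublets, and these stayed in. Cells were clustered with Seurat 5.3.0 in R 4.3.3 (canonical correlation on 20 dimensions, resolution 3.0, lineage cells again on 30 dimensions at 0.8), without Malat1, the members and the pathway list, and named by fixed markers. Types are rebuilt and not the authors' own, and 636 cells stayed unnamed, 7.64% of Control and 8.01% of TBI cells. Levels carry exact Poisson intervals, shares Clopper-Pearson intervals and ratios conditional binomial intervals (95%). Those of levels and ratios were checked on simulated Poisson counts, the model they assume, so the check leaves out spread between cells. Ratios needed 100 UMIs in all and 10 per library. All members are named, and of the pathway list the 2 highest and 2 lowest ratios, with Slc38a1, Got2 and Slc25a12 added after their values were seen. The members and lists were chosen with earlier results of these data known. Gene positions are those of GENCODE. Alternatives covered the limit on UMIs, mitochondrial share, doublets, integration, resolution, the denominator, the weight of cells and the fold and UMI limits, with 2 on the mature clusters added after the data were seen. A sample sheet holds no measurement and was not used.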

Additional observations from a re-analysis of the deposited data

Results flagged for a closer look

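Slc6a11 drew attention because its ratio of TBI to Control pointed in opposite directions in the 2 astroglial classes. The log2 ratio was 0.15 (0.03 to 0.27) in mature astrocyte-like cells and -0.65 (-1.23 to -0.10) in stem-like astroglia. Both counting intervals excluded 0, on opposite sides. Within the mature class the ratio was -0.01 (-0.31 to 0.29) in the Mt3 and Aldoc cluster. It was 0.18 (0.03 to 0.32) in the Gja1 and Aqp4 cluster and 0.20 (-0.18 to 0.57) in the Atp13a4 and Nwd1 cluster. The difference between the classes was not tested, since each condition is 1 library. Under the alternatives the ratio ran from 0.11 to 0.24 in mature cells and from -1.12 to -0.41 in stem-like astroglia, with the same sign in 13 of 13 and 11 of 11.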

How the results depend on the processing

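No paired analysis was possible because the animals of a condition were pooled in 1 library and cells carry no animal number. The counts of 7 genes at least 4-fold over non-astroglial types, of 3 at least 2-fold over stem-like astroglia and of 0 past 1.5-fold between conditions in mature cells stayed within 1.5 times under each alternative run, also without the mature cluster of lowest RNA content and with equal weight for the 3 clusters, which were added after the data were seen. The count of 2 genes past 1.5-fold in stem-like astroglia fell to 1 without a limit on UMIs, with cells over 10% mitochondrial UMIs removed, without integration, with the members allowed in the clustering and with the first clustering at resolution 1.5. It rose to 3 with a minimum of 50 UMIs, where Slc7a10 joined as lower in TBI, and fell to 0 with the mean of single-cell CPM and with a 2-fold limit. The gene left was Glul except under the mitochondrial limit, where it was Slc6a11; the cause was not tested. Of 159 ratios recomputed in the astroglial classes, 138 lay inside the main counting interval and 0 were more than 1.5 times away. Of 432 levels there, 12 moved by more than 1.5 times, and thinning to 1000 UMIs or none moved 33 of 72 shares that far. In mature cells the Slc1a2 ratio of -0.12 became 0.004 with the mean of single-cell CPM, and the Glul ratio of -0.07 became -0.004. Slc6a9 rests on 29 and 16 UMIs in mature cells, and the stem-like ratios on 33 TBI cells.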
